A study of Mus musculus with 8 samples.

Results

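Ribosome biogenesis factors are the proteins that copy, cut, modify and fold ribosomal RNA and join it to ribosomal proteins. A list of 43 such genes was followed through 4 primary cell lines of murine pancreatic ductal adenocarcinoma (PDAC) that had been given the MEK inhibitor trametinib (MEKi) or its solvent DMSO. The 43 genes were taken by symbol from a table of 34478 genes, and each of them was present and passed the filter on low values. They were sorted into 6 roles by their known function, which comprised 6 genes of transcription by RNA polymerase I (Pol I), 6 of small nucleolar ribonucleoproteins (snoRNPs), 4 multifunctional nucleolar proteins, 8 of the small subunit (SSU) processome, 5 of 40S maturation and 14 of 60S assembly.

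The lines, numbered #1, #3, #5 and #10, came from pancreatic tumours of genetically engineered mice that carried the alleles Ptf1awt/Cre and Trp53loxP/loxP. In this model Cre is expressed from the Ptf1a locus in pancreatic cells, where it removes both copies of Trp53, so by genotype control and treated cells alike lack p53. MEKi cells received trametinib for 48 h at the concentration that was each line's own IC50. The concentration was thus set line by line and may have differed between lines, and it is not given in the sources used here. Each line gave 1 library per treatment, 8 in all, of stranded mRNA selected for poly(A) tails. The replicate was thus the cell line. With the libraries of a line paired (the block), p-values measure the spread of the change between lines and not between repeat cultures of 1 line. This spread was moderated by that of other genes. The p-values given without the block measure the spread of levels between lines.

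A ribosome begins in the nucleolus, where Pol I copies the ribosomal DNA into a long precursor. Small nucleolar RNAs guide the chemical modification of this precursor, while large assemblies cleave it and fold it into a small (40S) and a large (60S) subunit that mature on the way to the cytoplasm. The process takes up much of the energy of a growing cell, is a known target of the transcription factor MYC, and receives signals from the MAPK pathway, which MEK serves.

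Library totals were 30680091 to 36385719 normalized counts, which corresponded to about 29300000 to 46000000 reads on genes as estimated from the step between low values. The lowest value of any member, Nop16 with MEKi in line #3, was 499 normalized counts or about 532 reads, so counting error was small throughout. MEK inhibition was checked on Dusp6, a phosphatase induced by ERK, which changed by -2.52 on the log2 scale (adjusted p = 0.00012, standard error 0.14), and on the ERK-controlled transcription factor Etv4, which changed by -5.92 (adjusted p = 0.0002, standard error 0.39). Of the epithelial markers, the keratin genes Krt7, Krt8, Krt18 and Krt19 stood at 9734 to 132484 normalized counts in each library, whereas Epcam was listed at 0 in both libraries of lines #1, #5 and #10 and stood at 10.4 and 3.76 in those of line #3. All 8 epithelial markers together summed to between 221230 and 348818 with DMSO and between 113156 and 222090 with MEKi. This lower sum reflects the abundant keratin genes, whose log2 fold changes were -0.97 to -0.66, and was not shared by the whole list. Cdh1, which encodes E-cadherin, was not called (log2 fold change -0.02, adjusted p = 0.88), Cldn4 was higher, at 12.5 to 244 with DMSO and 671 to 1461 with MEKi, and Sox9 was low and had a log2 fold change of -1.49. Markers of other cell types were low, with sums of 106 to 369 normalized counts with DMSO and 458 to 1263 with MEKi for 10 fibroblast genes, of 155 to 242 and 240 to 516 for 7 immune genes, of 30.9 to 55.4 and 62.7 to 831 for 5 endothelial genes, and of 40.3 to 252 and 16.5 to 127 for 5 acinar genes. The higher fibroblast, immune and endothelial sums with MEKi rested mainly on 1 gene per list, singled out after the values were seen. Col1a1 stood at 30.1 to 130 with DMSO and 360 to 1110 with MEKi, Csf1r at 1.05 to 46.9 and 14.2 to 340, and Tek at 1.30 to 21.5 and 13.5 to 805. Without these genes the sums were 76.1 to 239 and 66.3 to 155 for fibroblast, 154 to 224 and 160 to 267 for immune, and 14.5 to 48.1 and 25.9 to 70.3 for endothelial markers. Lum of the fibroblast list and Cpa1 of the acinar list were at 0 in every library. The part of other cells in the results was not tested. All values come from bulk RNA, in which fewer cells of a type and less RNA per cell cannot be told apart.

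MYC binds the sequence CACGTG, and ETS factors, which include nuclear targets of ERK, bind sites with a GGAA core. Promoters of the members were therefore read for CACGTG and for CCGGAAGT, a long form of the ETS core, on both strands. The windows below show every CACGTG found, in the orientation of the gene and with the motif in capitals, because they are the places where the known regulator Myc could be looked for in these genes.

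Mybbp1a, chr11:72441355-72441376: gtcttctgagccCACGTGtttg
Utp20, chr10:88826765-88826789: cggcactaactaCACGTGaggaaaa
Wdr43, chr17:71616220-71616249: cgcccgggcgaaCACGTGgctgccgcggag
Tsr1, chr11:74898092-74898121: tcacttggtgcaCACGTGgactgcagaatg
Ltv1, chr10:13193092-13193121: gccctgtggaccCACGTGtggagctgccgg
Grwd1, chr7:45830740-45830767: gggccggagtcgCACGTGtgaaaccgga
Nop2, chr6:125131811-125131840: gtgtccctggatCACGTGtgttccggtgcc
Pes1, chr11:3963965-3963994: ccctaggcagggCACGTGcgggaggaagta
Rrn3, chr16:13780472-13780501: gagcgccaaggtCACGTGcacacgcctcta
Rrn3, chr16:13780639-13780668: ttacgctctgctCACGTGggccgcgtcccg

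The sequences are from RefSeq on GRCm38.p6 and cover 250 bases before to 50 bases after each start of transcription. Utp20, Ltv1 and Grwd1 lie on the minus strand and the others on the plus strand. In Rrn3, which encodes the initiation factor of Pol I, the motif stood 215 and 48 bases before the start, and in Nop2 60 bases before it. In the other 7 genes it began 2 to 40 bases after the start. The table held 47 promoters of 38 members and none for Tcof1, Fbl, Npm1, Rrp12 and Bop1. CACGTG was in 9 of the 47 promoters (19.1%), against 9.51% of the 13929 promoters of all genes tested and 7.15% of all 32851 promoters. Of all promoters, whether of tested genes or not, 7192 had a like number of CpG sites (16.5 to 31, the interquartile range of the members' promoters). CACGTG was in 11.5% of these. It was in 17.2% of the promoters of other ribosome biogenesis genes and in 11.8% of those of cytosolic ribosomal protein genes.

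The members Grwd1, Ltv1, Rrn3 and Tsr1 held both motifs, and their CCGGAAGT windows are shown for that reason. The motif reads ACTTCCGG where it lies on the opposite strand, and the motifs CACGTG and CCGGAAGT share no base in these genes.

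Grwd1, chr7:45830810-45830839: ggaggtgaaacCCGGAAGTgacgctctcac
Ltv1, chr10:13193175-13193204: gggctcacgcaACTTCCGGctacagcctag
Ltv1, chr10:13193217-13193246: agccccacctcCCGGAAGTccccgggaagg
Rrn3, chr16:13780682-13780711: tctgcagcgccACTTCCGGggcgggtaggt
Tsr1, chr11:74898068-74898097: ctcgggtccgcCCGGAAGTagagttcactt

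CCGGAAGT was in 10 of the 47 promoters (21.3%), those of 9 genes, against 7.51% of promoters of all genes tested. It was in 9.37% of all promoters with a like number of CpG sites, whether of tested genes or not. The other genes with it were Heatr1, Nip7, Noc2l, Polr1c and Ppan. CCGGAAGT was also in 25.8% of the promoters of other ribosome biogenesis genes, a higher share than in the members. In cytosolic ribosomal protein genes the share was 16.2%. The motif GGGCGG, a site of SP factors that is frequent in CpG-rich promoters, was in 35 of 47 (74.5%). This was close to the 74.3% of all promoters with a like number of CpG sites. A match describes the sequence only, and binding was not measured in these cells. The 9 members with CACGTG had a median log2 fold change of -1.18 with MEKi, and ranged from -1.37 for Grwd1 to -0.60 for Ltv1. The 29 members whose promoters lacked it had a median of -1.09, and ranged from -2.01 for Dkc1 to -0.53 for Utp15. Rrn3, the only member with CACGTG at 2 places, had -0.72. The difference between the medians was not tested.

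The first question was how the 43 genes responded to MEK inhibition. All 43 were called lower with MEKi (limma, blocked by cell line, adjusted p below 0.05), and 0 were called higher. Over all 15888 genes tested, 25.6% were called lower and 27.3% higher. Each member was also lower in all 4 lines, as were 30.9% of all genes tested, and for 40 members every MEKi library lay below every DMSO library, as it did for 16.2% of all genes. The 3 members whose libraries overlapped were Polr1a, Rrn3 and Utp15. A fall of more than 2-fold in each of the 4 lines was found for 18 members and for 3.35% of all genes. The median log2 fold change of the members was -1.19, with -1.12, -1.65, -0.997 and -0.98 in lines #1, #3, #5 and #10. The median over all genes was 0.07. Members ranged from -2.01 for Dkc1 to -0.53 for Utp15.

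**Figure D1:**
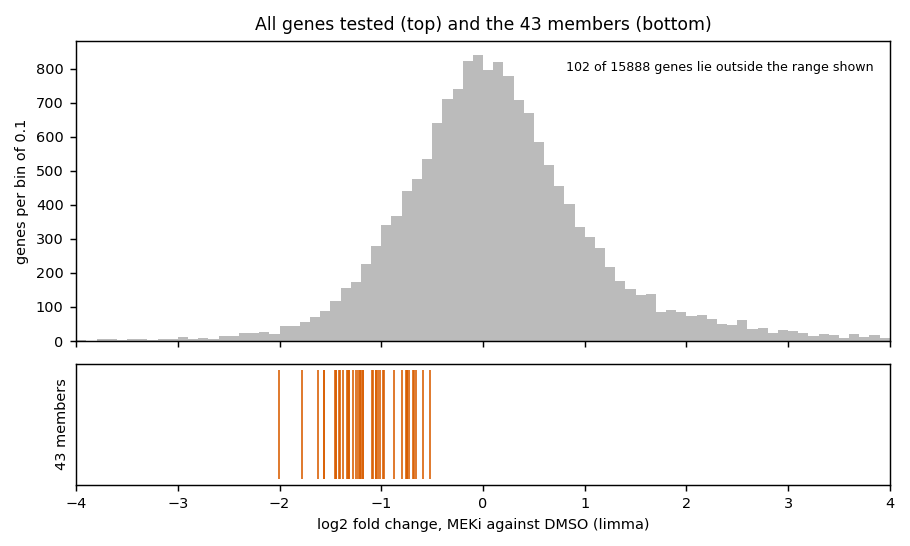
Log2 fold changes (MEKi against DMSO, limma) of all 15888 genes tested, as a histogram of genes per bin of 0.1 (top), and of the 43 members, each as a vertical line (bottom). The genes spread on both sides of 0, with 102 outside the range shown, while the members lie between -2.01 and -0.53.

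**Figure D2:**
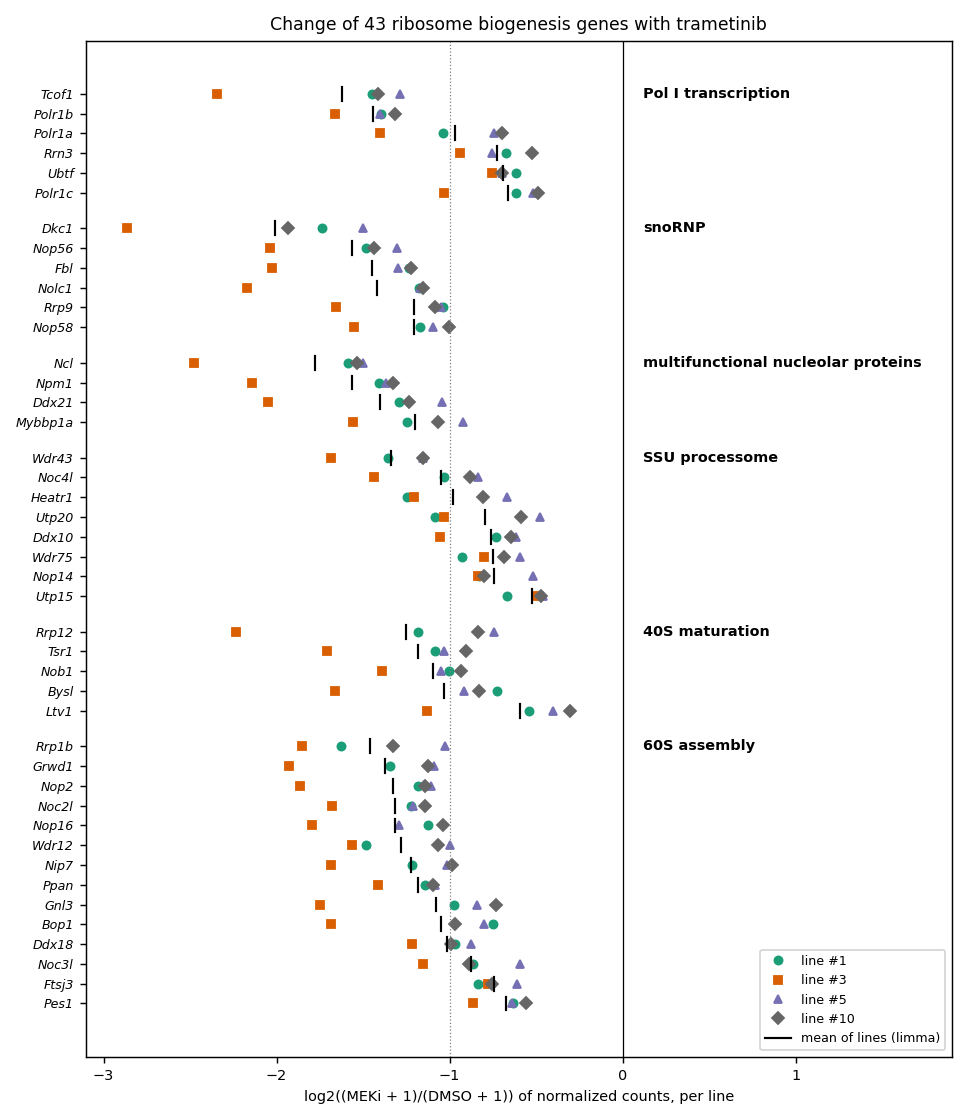
Change of each of the 43 members in each line, on the x axis as log2((MEKi + 1)/(DMSO + 1)) of normalized counts, grouped by role. Points are single lines, black ticks are the limma estimates over the 4 lines, and the dotted line marks a 2-fold fall. All points lie below 0, and line #3 is the lowest of the 4 in 38 members.

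The members together took up 1.10%, 1.15%, 1.23% and 1.24% of all normalized counts in the DMSO libraries of lines #1, #3, #5 and #10, and 0.503%, 0.364%, 0.635% and 0.605% in the MEKi libraries. The share of every MEKi library was below that of every DMSO library, and the means were 1.179% ± 0.064 (SD, n = 4) and 0.527% ± 0.122 (SD, n = 4). Ncl and Npm1, the members with the highest counts, made up 36.04% ± 2.08 (SD, n = 4) of the members' counts with DMSO and 28.4% ± 2.52 (SD, n = 4) with MEKi. Without this pair the share still went from 0.754% ± 0.037 (SD, n = 4) to 0.375% ± 0.081 (SD, n = 4).

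**Figure D3:**
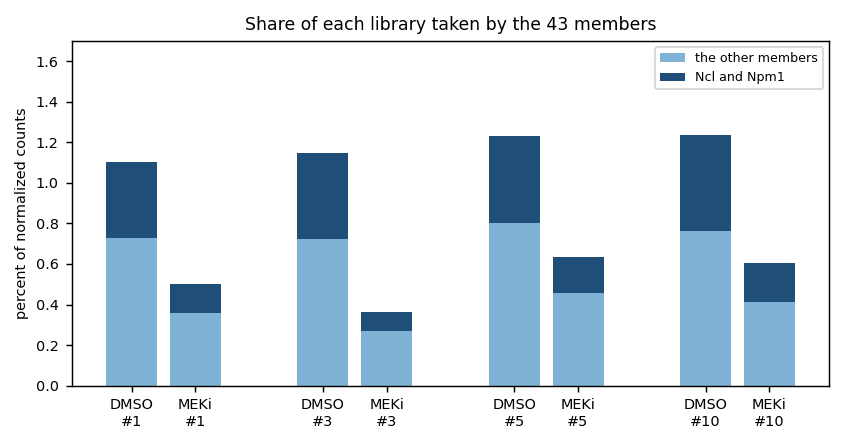
Share of each library's normalized counts, in percent, taken by the 43 members, with Ncl and Npm1 stacked on the other 41. Bars are single libraries, paired by line. The DMSO bars reach 1.10% to 1.24% and the MEKi bars 0.364% to 0.635%, with the lowest in line #3.

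Transcription of ribosomal DNA was represented by 3 subunits of Pol I and 3 factors that act with it, which all fell, with a median log2 fold change of -0.85. Polr1a encodes the largest subunit and lies on chromosome 6 of GRCm38, between 71909053 and 71984935. Its normalized counts were 9862, 8847, 14220 and 7619 in the DMSO libraries of lines #1, #3, #5 and #10 and, in the same order, 4796, 3341, 8477 and 4698 in the MEKi libraries. The MEKi library of line #5 lay above the DMSO library of line #10, so the groups overlapped, although each line fell. The log2 fold change was -0.97 (adjusted p = 0.0014, standard error 0.13).

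Polr1b encodes the second-largest subunit (chromosome 2, 129100995 to 129126594). Its counts were 4348, 4368, 4546 and 4599 with DMSO and 1652, 1381, 1718 and 1845 with MEKi. These levels were nearly equal across lines on either side, and the gene fell to 36.8% of its DMSO level by the fitted change (log2 fold change -1.44, adjusted p = 0.00018, standard error 0.09). Polr1c encodes a subunit that Pol I shares with RNA polymerase III (chromosome 17, 46243920 to 46248054). It went from 2053, 2588, 2147 and 2673 to 1340, 1265, 1501 and 1907, and the lowest DMSO library lay just above the highest MEKi library. Its log2 fold change was -0.66 (adjusted p = 0.0034, standard error 0.12). The 3 subunits thus fell by unequal amounts. The ratio of Polr1c to Polr1b rose in each line, by 0.78 ± 0.11 (SD, n = 4 lines) on the log2 scale, and that of Polr1a to Polr1b by 0.47 ± 0.20 (SD, n = 4 lines). These ratios are given as descriptions without a test.

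Rrn3 encodes the factor that brings Pol I to the promoter and is known to respond to growth signals (chromosome 16, 13780708 to 13814839). It was at 5109, 2804, 5027 and 3688 with DMSO and at 3202, 1461, 2979 and 2559 with MEKi, and lines #1 and #5 with MEKi lay above line #3 with DMSO. The log2 fold change was -0.72 (adjusted p = 0.0012 with the block and 0.088 without it, standard error 0.09). Ubtf encodes UBF, which binds ribosomal DNA and keeps it open (chromosome 11, 102304560 to 102319742). Its counts fell from 5839, 5087, 5937 and 6683 to 3812, 3008, 3665 and 4116. The lines differed little in this change, from -0.76 in line #3 to -0.61 in line #1, and their standard deviation of 0.06 was the smallest of all members. The log2 fold change was -0.69 (adjusted p = 0.00075, standard error 0.08). Tcof1 encodes treacle, a nucleolar scaffold that binds UBF and Pol I (chromosome 18, 60813755 to 60848971). It showed the largest fall of this role, from 6467, 7334, 8982 and 9667 to 2370, 1444, 3686 and 3630, with the lowest MEKi value in line #3. Its log2 fold change was -1.62 (adjusted p = 0.00074, standard error 0.18).

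**Figure D4:**
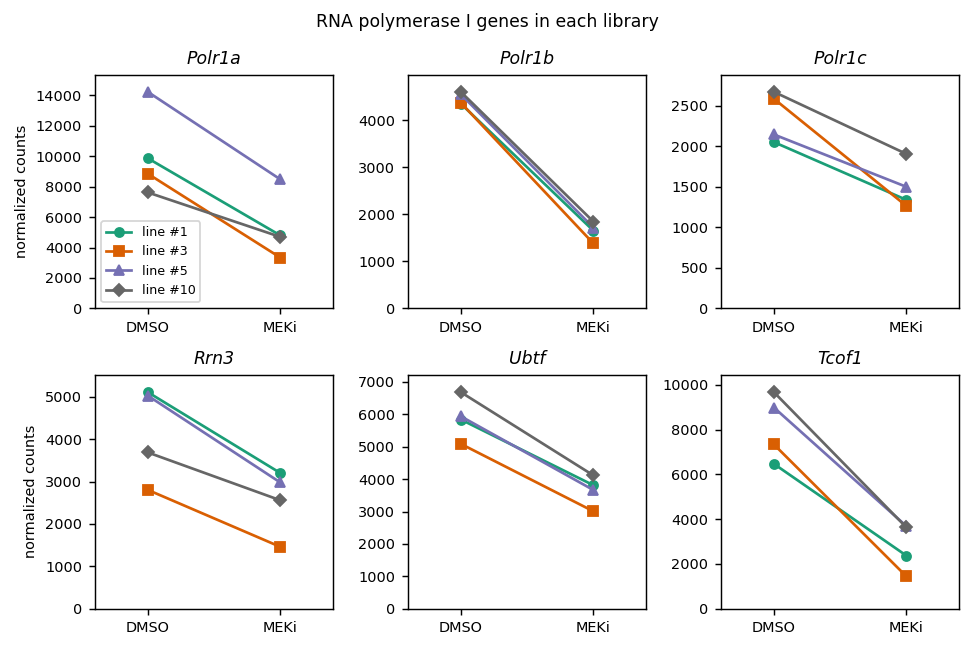
Normalized counts of the 6 Pol I genes in each library (y axis from 0, a different scale in each panel), with the DMSO and MEKi libraries of a line joined. Every line slopes downward in every panel, and by the fitted change Polr1b ends at 36.8% of its DMSO level and Polr1c at 63.2%.

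The genes for proteins of snoRNPs, the particles that carry small nucleolar RNAs, had a median log2 fold change of -1.43 over 6 genes, each of which was more than 2-fold lower in all 4 lines. Dkc1, on chromosome X from 75095854 to 75109777, encodes dyskerin, the enzyme that makes pseudouridine in ribosomal RNA and that also belongs to telomerase. Its DMSO counts were 6831, 4843, 6721 and 5075, and its MEKi counts 2050, 666, 2374 and 1325. The groups were far apart, and line #3 fell most, with a log2 fold change of -2.86. The overall log2 fold change of -2.01 (adjusted p = 0.00066, standard error 0.21) was the lowest of the 43, with 1.44% of all genes tested lower.

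Nop56 and Nop58 encode the paired core proteins of box C/D particles, in which the guide RNA directs methylation of ribose. Nop56 (chromosome 2, 130274430 to 130279313) went from 19696, 21757, 21556 and 26284 to 7039, 5304, 8735 and 9684. Its log2 fold change was -1.57 (adjusted p = 0.00037, standard error 0.13). Nop58 (chromosome 1, 59684971 to 59719044) went from 11161, 10246, 12172 and 11804 to 4951, 3486, 5693 and 5879, a log2 fold change of -1.21 (standard error 0.11 and adjusted p = 0.00045). Both were separated between treatments, and the ratio of Nop56 to Nop58 was lower with MEKi in each line, by a mean log2 change of -0.36 ± 0.12 (SD, n = 4 lines). Fbl, which encodes the methyltransferase of the same particles, had a log2 fold change of -1.45. Nolc1, a chaperone of snoRNPs, had -1.42, and Rrp9, a protein particular to the U3 particle, had -1.21. In all 6 genes the fall was steepest in line #3.

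The genes of multifunctional nucleolar proteins had a median of -1.48 over 4 genes. Differences between the medians of roles are descriptions and were not tested. Ncl, which encodes nucleolin, an RNA-binding protein of the nucleolus (chromosome 1, 86344719 to 86359400), stood at 65911, 73615, 77888 and 83853 with DMSO and at 21920, 13191, 27511 and 28951 with MEKi. The highest MEKi library reached less than the lowest DMSO library by a wide margin, and the log2 fold change was -1.78 (adjusted p = 0.00061, standard error 0.18). Npm1, which encodes nucleophosmin, a chaperone of histones and ribosomal proteins (chromosome 11, 33152287 to 33163206), went from 67388, 69193, 77433 and 80605 to 25351, 15638, 30045 and 32063. Its log2 fold change was -1.56 (adjusted p = 0.00061, standard error 0.16). In both genes line #3 changed from a DMSO level near the others to the lowest MEKi level. Mybbp1a, a nucleolar protein that binds MYB (chromosome 11, 72441355 to 72451768), had the smallest change of the role, from 29726, 28614, 33306 and 33412 to 12538, 9712, 17554 and 15948 (log2 fold change -1.20, adjusted p = 0.00061, standard error 0.12). Ddx21, an RNA helicase, had a log2 fold change of -1.40.

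The SSU processome is the assembly that forms on the precursor around the U3 particle and prepares the small subunit. Its 8 genes had a median log2 fold change of -0.78, against -0.85 for the Pol I genes, a difference that was not tested and that turned around in lines #1 and #10. Wdr43 (chromosome 17, 71615895 to 71659031), a scaffold protein of an early subcomplex, fell most, by a log2 fold change of -1.34 (standard error 0.11 and adjusted p = 0.00035). It went from 7426, 6493, 7501 and 7409 to 2905, 2019, 3369 and 3329, and was the only one of the 8 that was more than 2-fold lower in all 4 lines. Utp15 (chromosome 13, 98246845 to 98263041), a protein of the same subcomplex, changed least of all 43 members. Its counts were 2747, 2185, 3041 and 1933 with DMSO and 1727, 1545, 2213 and 1394 with MEKi. The MEKi library of line #5 lay above the DMSO libraries of lines #3 and #10, although each line fell. The log2 fold change was -0.53 (adjusted p = 0.0025 with the block and 0.076 without it, standard error 0.08). The other members had log2 fold changes of -1.05 for Noc4l, -0.98 for Heatr1, -0.80 for Utp20, -0.76 for the helicase gene Ddx10, and -0.75 for both Wdr75 and Nop14. This was the only role in which line #3 was not lowest for most genes. In Heatr1, Utp20, Wdr75 and Utp15 the fall was largest in line #1, and the role medians were -0.98, -1.04, -0.61 and -0.74 in lines #1, #3, #5 and #10, where those of the Pol I genes were -0.86, -1.22, -0.75 and -0.70.

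The genes of 40S maturation act on the small subunit after the processome has left it. They had a median log2 fold change of -1.10, and all 5 were separated between treatments. Rrp12 (chromosome 19, 41862851 to 41896173), which takes part in export of the subunits, had the lowest value at -1.25 (adjusted p = 0.0051, standard error 0.24). It also had the largest spread between lines of all 43 members. Its counts went from 3345, 3201, 4214 and 4085 to 1473, 678, 2514 and 2284. The log2 fold change was -2.24 in line #3, -0.75 in line #5 and -0.84 in line #10 (standard deviation over lines 0.68). Its rank in the role depended on line #3. In lines #5 and #10 Tsr1 (-1.03 and -0.91) and Nob1 (-1.05 and -0.93) fell more than Rrp12. Tsr1 (chromosome 11, 74898071 to 74909342), which blocks early binding of translation factors to the nascent subunit, was the most abundant of the role by its counts, with 6235, 6999, 7347 and 6754 for DMSO and 2935, 2144, 3589 and 3602 for MEKi. Its log2 fold change was -1.18 (adjusted p = 0.00093, standard error 0.14). Ltv1 (chromosome 10, 13178140 to 13193168), a factor that is released late from the subunit, went from 1957, 1592, 2089 and 1603 to 1345, 725, 1582 and 1297. The groups were separated by a small gap, since the MEKi library of line #5 almost reached the DMSO library of line #3. The log2 fold change of -0.60 (adjusted p = 0.014, standard error 0.15) had the highest adjusted p of the members, which was 0.095 without the block and 0.078 when a minimum change of 1.2-fold was required. Nob1, the nuclease that makes the final cut of the small subunit RNA, had a log2 fold change of -1.10, and Bysl had -1.03.

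The largest role, 60S assembly, had a median log2 fold change of -1.21 over 14 genes, all separated between treatments. Rrp1b (chromosome 17, 32036100 to 32062865), a nucleolar protein of 60S precursors, fell most. It was at 3175, 3799, 3406 and 2847 with DMSO and at 1027, 1051, 1673 and 1132 with MEKi, where line #5 stayed above the other 3 lines. The log2 fold change was -1.46 (adjusted p = 0.00055, standard error 0.14). Nop2 (chromosome 6, 125131909 to 125144753), which encodes a methyltransferase of large subunit RNA, had the highest counts of the role. They were 10431, 9243, 13789 and 9576 with DMSO and 4595, 2537, 6386 and 4342 with MEKi, a log2 fold change of -1.33 (standard error 0.14 and adjusted p = 0.00068). Pes1 (chromosome 11, 3963975 to 3980004) changed least of the 14, from 5049, 5281, 5822 and 5477 to 3251, 2899, 3737 and 3718. Its lines fell by similar amounts, with log2 fold changes from -0.87 in line #3 to -0.56 in line #10, and the estimate was -0.68 (adjusted p = 0.0012, standard error 0.09).

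Pes1, Bop1 and Wdr12 encode the partners of the PeBoW complex, which is needed to process the RNA of the large subunit, and they fell by different amounts. Bop1 had a log2 fold change of -1.05 and Wdr12 of -1.28. The ratio of Pes1 to Wdr12 was higher with MEKi in each line, by 0.60 ± 0.22 (SD, n = 4 lines) on the log2 scale. That of Bop1 to Wdr12 changed by 0.23 ± 0.37 (SD, n = 4 lines), with line #3 below 0. Genes with a stretch similar to Wdr12 together reached 256% of its level. Whether shared reads affect the ratios with Wdr12 was not measured. Of the partners Noc2l and Noc3l, which travel with early large subunits, Noc2l had a log2 fold change of -1.31 and Noc3l of -0.88, and their ratio was lower in each line (mean log2 change -0.44 ± 0.16, SD, n = 4 lines). The remaining members of the role were Grwd1, a chaperone of a ribosomal protein, at -1.37, Nop16 at -1.31, Nip7 at -1.23, Ppan at -1.19, Gnl3, the GTPase nucleostemin, at -1.08, the helicase gene Ddx18 at -1.02, and the methyltransferase gene Ftsj3 at -0.75. Only Ftsj3 fell most in line #1, and the other 13 fell most in line #3.

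Across the roles, the lines differed in the size of the fall. Line #3 was the lowest of the 4 in 38 of 43 members (88.4%), against 37.5% of all genes tested, and line #1 was lowest in the other 5. A fall of more than 2-fold was seen for 28 members in line #1, 36 in line #3, 21 in line #5 and 20 in line #10. Over all genes tested such falls made up 8.85%, 15.9%, 8.86% and 8.52% in these lines, so line #3 held the most there too. The smallest fall was in line #5 for 22 members (51.2%) and in line #10 for 17 (39.5%), whereas the log2 fold change of all genes was highest in these lines for 23.9% and 20.3%. With DMSO line #3 had the lowest level of the 4 lines for 22 members (51.2%, against 30.7% of all genes) and the highest for 3 (6.98%, against 26.5%). With MEKi it had the lowest level for 36 members (83.7%, against 37.5%). With 1 library per line and treatment these differences between lines have no replicate and were not tested. Proliferation markers also fell most in line #3, with all 10 lower with MEKi and medians of -1.27, -2.46, -0.93 and -1.27 in lines #1, #3, #5 and #10. Their summed level was 93408 to 103958 with DMSO and 18201 to 57478 with MEKi. Mki67, which encodes the proliferation antigen Ki-67, changed by -1.52 on the log2 scale (adjusted p = 0.0025, standard error 0.25) and by -2.53 in line #3. The part of lower proliferation in the change of the members was not tested.

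**Figure D5:**
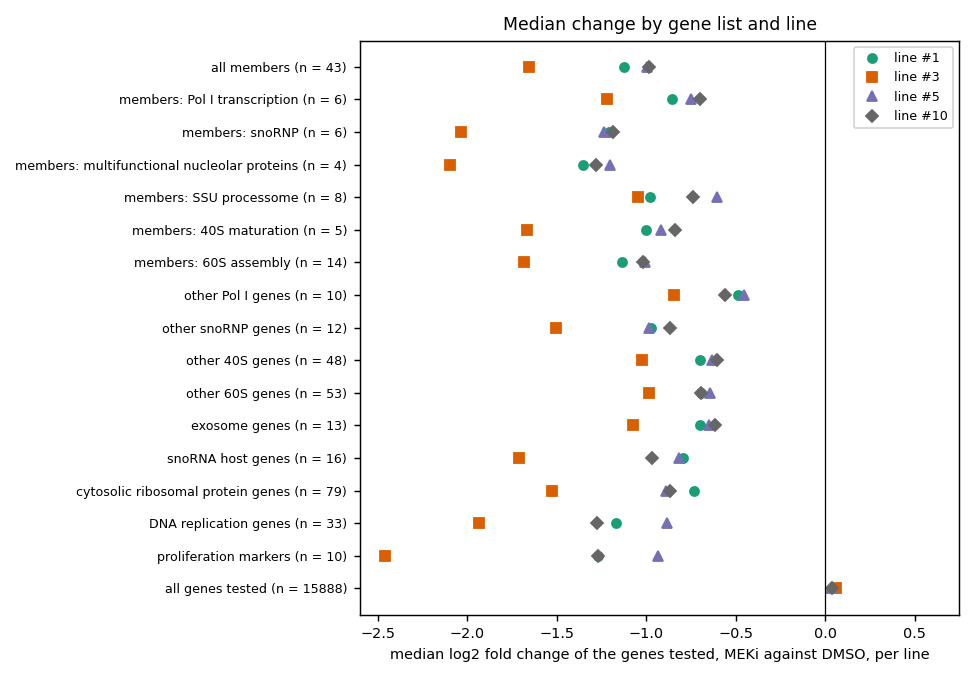
Median log2 fold change (MEKi against DMSO) of each gene list in each line, with n the number of genes tested. Points are lines. Line #3 lies lowest in each list shown other than all genes, where the 4 medians lie between 0.03 and 0.06, and the members' medians lie between -1.65 and -0.98.

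To place the 43 genes within their pathway, 139 other ribosome biogenesis genes were listed by function, of which 136 were tested. With MEKi 118 were lower, 3 were higher and 15 were not called, and 125 were lower in all 4 lines. Their median log2 fold change of -0.76 lay between that of the members and that of all genes. By role, 7 of 10 other Pol I genes were lower and 1 higher, 12 of 12 other snoRNP genes were lower, 42 of 48 other 40S genes were lower and 1 higher, 46 of 53 other 60S genes were lower and 1 higher, and 11 of 13 genes of the exosome, which trims precursor ends, were lower. The medians were -0.60, -1.07, -0.75, -0.76 and -0.80.

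The lowest of these other genes was Lyar, a nucleolar protein of cell growth, at 3414, 3392, 4213 and 3804 with DMSO and 963, 679, 1168 and 1066 with MEKi (log2 fold change -1.96, adjusted p = 0.00014, standard error 0.11). Exosc8, a subunit of the exosome ring, went from 3352, 3460, 3403 and 3226 to 1491, 608, 1604 and 1348 (log2 fold change -1.50, adjusted p = 0.0024). Rpf2, which helps to place the small RNA of the large subunit, went from 1504, 1330, 1715 and 1176 to 624, 294, 693 and 542 (log2 fold change -1.47, adjusted p = 0.0011). In these 3 genes too the fall was largest in line #3. At the other end, Riok3, an atypical kinase linked to the small subunit, was higher with MEKi, at 331, 345, 405 and 367 with DMSO and 583, 516, 845 and 692 with MEKi (log2 fold change 0.84, adjusted p = 0.0019, standard error 0.13). Ttf1, which ends transcription by Pol I, went from 790, 1082, 589 and 1012 to 876, 1447, 880 and 1265 (log2 fold change 0.37, adjusted p = 0.026, standard error 0.11). Both were higher in every line. Riok3 was called in all 15 alternatives and Ttf1 in 10 of 15, and the adjusted p of Ttf1 was 0.30 without the block and 0.059 with centring on the median. Rrp36 was listed at 0 in 7 libraries and at 101 in the MEKi library of line #10, and it was not called (adjusted p = 0.29), so its place among the highest rests on 1 library. The third gene called higher was Sbds, which acts in the release of a factor from the late large subunit and was named after its value of 0.28 was seen (adjusted p = 0.039). Sbds kept this call in 6 of 15 alternatives, and its adjusted p was 0.12 both without the block and with centring on the median.

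The pathway joins ribosomal RNA to ribosomal proteins, whose genes were lower too. All 79 cytosolic ribosomal protein genes tested were lower with MEKi, with a median log2 fold change of -1.02 and line medians of -0.73, -1.53, -0.89 and -0.87. Their share of all normalized counts went from 4.41% ± 0.27 (SD, n = 4) to 2.41% ± 0.49 (SD, n = 4). Ribosomal protein genes have many pseudogenes, so their counts could be split. A fall of this size was also found outside the ribosome, since all 33 DNA replication genes were lower with a median of -1.32. Of the factors linked to control of ribosomal DNA transcription that are reported here, 3 were lower (Myc, Max and Rptor), 3 were higher (Mycn, Rb1 and Rbl2) and Mtor was not called. Myc, a known regulator of the members, fell from 9547, 6413, 11238 and 8084 to 5085, 3036, 5652 and 3917. Its groups were separated and the change was much the same in each line, from -1.08 in line #3 to -0.91 in line #1 (log2 fold change -1.01, adjusted p = 0.00031, standard error 0.08). Its relative Mycn, which binds the same CACGTG sequence and was named after its values were seen, rose from 199.9, 67.9, 280.0 and 119 to 925, 318, 456 and 293 (log2 fold change 1.602, adjusted p = 0.0034, standard error 0.28). Rb1 and Rbl2, genes of the retinoblastoma protein family, had log2 fold changes of 0.35 and 0.66.

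Several members house small nucleolar RNA genes, which are cut from the introns of such hosts. In GENCODE M21, 8 of the 43 members (18.6%) had annotated snoRNA genes within their gene body, 23 in all, against 238 of 13136 protein-coding genes tested (1.81%). Nop56 held 5, Nop58 held 4, Ncl, Wdr43 and Gnl3 held 3 each, Tsr1 and Ppan held 2 each and Dkc1 held 1. Their median log2 fold change was -1.27, and that of the 35 members without a snoRNA gene was -1.05. The 230 other coding hosts had a median of -0.36, with 117 lower and 47 higher. The non-coding snoRNA host genes, such as Gas5, were lower in 13 of 16 cases and higher in 2, with a median of -1.002. The small nucleolar RNAs themselves lack poly(A) tails and were not measured.

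Reads of some members could be shared with similar sequences. For 10 members a stretch of at least 200 bases with 95% identity or more occurred, on either strand, in a transcript of another gene. In 4 of them the other genes together reached more than 5% of the member's level, which was 256% for Wdr12, 147% for Fbl, 128% for Bysl and 5.13% for Tsr1, and how many reads might be misassigned in these 4 genes was not measured. For Nop56, Npm1, Pes1, Ddx18 and Noc2l the similar genes reached at most 0.191% of the member's level. The similar gene of Ddx21 was not among the genes with values. Reads were stranded, so a stretch on the opposite strand need not share them, and the strand of each stretch was not recorded.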

How the data were processed

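RNA of 4 DMSO and 4 MEKi cultures was sequenced as stranded mRNA in paired reads of 100 bases. The deposited table gives each gene a signal, its read count after the authors had normalized the libraries to each other. The submitters' processing notes name CASAVA 2.17, Salmon 0.12, DESeq2 1.18 and the build mm10, without their roles. Whole reads could not be recovered, so no count model was used. Values were transformed as log2(value + 1), which understates changes of low genes, and limma 3.58.1 under R 4.3.3 (lmFit and eBayes with trend, cell line as a block) was run on 15888 genes whose mean reached 10, with Benjamini-Hochberg adjustment over all of these and a threshold of 0.05. The lines pair the libraries, since the labels give both the same cell line number, and deviations of paired libraries correlated at 0.63 to 0.72 across genes. The fit was tested on simulated data. Similar transcripts were searched with blastn 2.17.0, positions are from GENCODE M21 on GRCm38, and matplotlib 3.10.9 drew the plots.

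The members and lists were chosen with earlier results of these data known. Values in every library are given for all Pol I members and, in each other role, for the members with the lowest and highest log2 fold change and the highest level, and for any member not called. Outside the members the rule names Myc, Dusp6, Etv4, Mki67 and the 3 lowest and 3 highest of the other pathway genes. Cell type markers, factors linked to ribosomal DNA transcription, Sbds and Gas5 were named in addition, after their values were seen. The 15 alternatives were 2 other pseudocounts, 3 other scalings, 2 other filters, no block, 2 other variance settings, a minimum change of 1.2-fold, and each line left out in turn. One allele of the mouse model and 1 listed gene are not reported here.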

Additional observations from a re-analysis of the deposited data

Results flagged for a closer look

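The DMSO levels, MEKi levels and log2 fold changes of the 43 members formed 129 sets of 4 values, 1 per line. In 11 sets 1 line lay far from the rest by Dixon's criterion, where chance would give about 6.45 if the sets were independent, and 9 of the 11 were in line #3 and 2 in line #5. The sets are not independent, since all members come from the same 8 libraries and each log2 fold change uses the levels of its own gene, so the number is no test of line #3. In line #3 the log2 fold change was -2.34 for Tcof1, against -1.45 to -1.28 in the other lines. It was -2.03 for Fbl (others -1.30 to -1.22), -2.17 for Nolc1 (others -1.18 to -1.15), -1.65 for Rrp9 (others -1.08 to -1.04) and -2.48 for Ncl (others -1.59 to -1.50). It was -2.15 for Npm1 (others -1.41 to -1.33), -1.86 for Nop2 (others -1.18 to -1.11) and -1.68 for Noc2l (others -1.22 to -1.14). The DMSO level of Wdr43 in line #3 was 6493 normalized counts, against 7409 to 7501 in the others. In line #5 the log2 fold change of Nop14 was -0.52 (others -0.84 to -0.80), and the MEKi level of Rrp1b was 1673 normalized counts (others 1027 to 1132).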

How the results depend on the processing

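Of the 43 members, all kept their direction under each of the 15 alternatives, and all were called lower in 13 of them. Without the cell line as a block 40 were called, and Rrn3, Utp15 and Ltv1 lost their call with unchanged log2 fold changes of -0.72, -0.53 and -0.60. With a minimum change of 1.2-fold Ltv1 lost its call. With each line left out in turn all 43 were called, with adjusted p up to 0.047, and the members' median ran from -1.24 without line #10 to -1.01 without line #3. Without the block 2347 of all genes were called lower and 2205 higher, 4552 in all against 8416 with it, and with the minimum change 2660 and 2970. Of the other pathway genes, 118 were called lower in the main fit. This number was 88 without the block, 94 with the minimum change, 106 with libraries rescaled to equal totals and 122 with centring on the median. In the main fit 3 of them were called higher. Only 1, Riok3, kept this call with centring on the median, without the block, with the minimum change, and without line #5 or #10. With each line left out in turn, 1 to 2 were called higher. Rescaling libraries to equal totals moved the median of all genes from 0.07 to 0.20 and the split of calls to 3285 lower and 5333 higher (38.1% lower against 48.4%), and the members' median to -1.06. Relative to the median of all genes the members' median was -1.26 under both scalings, and with quantile normalization the members' median was -1.03 and that of all genes -0.03. With 4 lines, 1 library per treatment each and a concentration set by line, differences between lines cannot be told apart from differences between libraries or doses. Depth did not limit the members, whose lowest value rests on about 532 reads.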
